A study of Mus musculus with 6 samples.

Results

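The small proline-rich protein genes examined were *Sprr1a*, *Sprr2b*, *Sprr2d*, *Sprr2e*, *Sprr2f*, *Sprr2g*, *Sprr2h* and *Sprr3*, 8 of the 23420 gene rows in each count table. They were chosen by symbol as a gene family, and the family was selected because *Sprr2e* had been seen far above control after recombinant Lif (rLif). The luminal comparison of rLif with control is therefore given as a description, and the other luminal comparisons share a library with it. Lif (leukemia inhibitory factor) is a cytokine that the uterine glands secrete before the blastocyst attaches. Control females were Lif-floxed/floxed without Cre and received phosphate-buffered saline (PBS). *Lif* eKO females were Lif-floxed/floxed Ltf-Cre/+, in which Cre driven from the *Ltf* promoter deletes *Lif* in the uterine epithelium while the stroma keeps the gene, and also received PBS. The treated group was *Lif* eKO females given 20 µg rLif per head intraperitoneally at 10 am and 6 pm on day 4 of pregnancy, 2 h before dissection. All tissue was collected at 8 pm on day 4. In each group the luminal layer of the uterus was cut out by laser microdissection, with the RNA of 3 independent samples pooled into 1 library, and blastocysts (genotype Lif-floxed/+ in all 3 groups) were flushed and pooled into 1 library. The ages of the females were not given in the sources used here.

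Small proline-rich proteins are short proteins, rich in proline and glutamine, that transglutaminases join to other proteins in the cornified envelope under the membrane of skin and other stratified epithelia. Their genes lie together in the epidermal differentiation complex, beside loricrin, involucrin, filaggrin and many S100 genes. *Sprr2* genes are also expressed in simple epithelia, and in the mouse uterus they are known to respond to estrogen. Lif signals through a receptor of Lifr and gp130 that activates the transcription factor Stat3.

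The 8 genes lay on chromosome 3 (GRCm38) within 169 kb. The *Sprr2* members filled 70.6 kb on the plus strand, in the order *Sprr2b* (chr3:92316705-92318085), *Sprr2d* (chr3:92339140-92340873), *Sprr2e* (chr3:92352143-92353449), *Sprr2f* (chr3:92365187-92366442), *Sprr2g* (chr3:92373915-92375229) and *Sprr2h* (chr3:92385685-92387319). *Sprr3* (chr3:92456502-92458720) and *Sprr1a* (chr3:92483954-92485881) followed on the minus strand. Each *Sprr2* member had 2 exons in the count tables, a short first exon of 40 to 43 bases and a longer second one, and in the GENCODE M21 annotation the coding sequence of each lay within 1 exon. Coding lengths ran from 231 bases in *Sprr2e* and *Sprr2f* to 435 bases in *Sprr1a* and 717 bases in *Sprr3*. The GENCODE transcript of *Sprr2g* that matched the exon length of its row (651 bases) was typed as a polymorphic pseudogene. Its annotated coding stretch of 232 bases is not a whole number of codons, and another *Sprr2g* transcript was typed as protein coding.

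Because the copies are alike, the bases that tell them apart decide which row a read can enter. The first 90 coding bases of the members on which the results turn are printed from the GENCODE M21 transcripts, 5′ to 3′, with capitals on the bases that differ from the commonest base of the in-frame *Sprr2* members or have no partner in the alignment.
Sprr2d: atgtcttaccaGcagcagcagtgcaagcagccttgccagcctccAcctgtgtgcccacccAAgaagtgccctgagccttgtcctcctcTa
Sprr2e: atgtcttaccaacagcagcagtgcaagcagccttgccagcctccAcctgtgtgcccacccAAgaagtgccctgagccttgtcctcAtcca
Sprr2f: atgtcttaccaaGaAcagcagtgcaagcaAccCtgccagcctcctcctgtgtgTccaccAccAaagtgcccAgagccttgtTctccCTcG
Sprr2g: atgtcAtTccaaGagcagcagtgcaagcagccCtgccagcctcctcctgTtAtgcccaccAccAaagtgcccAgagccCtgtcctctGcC
In this stretch *Sprr2d* had 5 such bases and *Sprr2e* had 4, while *Sprr2f* and *Sprr2g* had 12 each, those of *Sprr2g* with 2 gap positions. Over the whole coding sequence, *Sprr2e* was 89.6% identical to *Sprr2f* and 87.5% to *Sprr2g*, *Sprr2f* was 88.4% identical to *Sprr2g*, and *Sprr2d* was 84.9% identical to *Sprr2e*. Over whole transcripts the identity of *Sprr2f* and *Sprr2g* was 72.0%, and that of *Sprr2d* and *Sprr2e* was 79.1%. Exact sharing was smaller. Of the 50-base stretches in each transcript, 14.1% in *Sprr2b* also occurred in a transcript of another gene (*Sprr2a* copies), 10.2% in *Sprr2e* (mostly *Sprr2i*, then *Sprr2d*), 4.27% in *Sprr2d* and 0.714% in *Sprr2f* (4 of 560, all in *Sprr2e*). None was shared for *Sprr2g*, *Sprr2h*, *Sprr3* or *Sprr1a*, and at 100 bases the share was 0.438% in *Sprr2b*, 1.09% in *Sprr2e* and 0 in the other members. The read length and the setting for reads with several matches are not given in the sources used here, so small counts of *Sprr2b*, *Sprr2d* and *Sprr2e* are uncertain.

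The 250 bases upstream of the annotated start were read from RefSeq (GRCm38.p6) for the 7 members with an entry; *Sprr2g* had none. Those of the most abundant member (*Sprr2f*), of the member on which the family was selected and its closest copy upstream (*Sprr2e* and *Sprr2d*), of the member with 0 counts (*Sprr2h*) and of the member outside the *Sprr2* run (*Sprr1a*) are printed 5′ to 3′ on the gene's strand, at chr3:92364937-92365186, chr3:92351893-92352142, chr3:92338890-92339139, chr3:92385435-92385684 (all plus) and chr3:92485882-92486131 (minus). Capitals mark matches to an AP-1 motif (TGANTCA) and to the octamer motif (ATTTGCAT), searched on both strands.
Sprr2f: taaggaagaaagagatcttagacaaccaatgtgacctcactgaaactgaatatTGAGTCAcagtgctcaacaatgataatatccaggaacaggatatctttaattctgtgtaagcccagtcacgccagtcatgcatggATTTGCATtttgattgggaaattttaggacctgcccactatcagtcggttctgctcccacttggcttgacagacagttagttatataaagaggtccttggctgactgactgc
Sprr2e: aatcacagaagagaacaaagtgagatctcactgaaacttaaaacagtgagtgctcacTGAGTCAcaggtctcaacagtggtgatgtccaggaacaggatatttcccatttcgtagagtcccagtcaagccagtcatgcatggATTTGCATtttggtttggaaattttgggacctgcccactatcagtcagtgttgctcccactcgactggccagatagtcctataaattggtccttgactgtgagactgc
Sprr2d: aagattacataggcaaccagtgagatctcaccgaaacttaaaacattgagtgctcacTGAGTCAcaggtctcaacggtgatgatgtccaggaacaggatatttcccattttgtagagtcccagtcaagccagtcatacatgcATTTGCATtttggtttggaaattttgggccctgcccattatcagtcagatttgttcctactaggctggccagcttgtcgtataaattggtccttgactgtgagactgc
Sprr2h: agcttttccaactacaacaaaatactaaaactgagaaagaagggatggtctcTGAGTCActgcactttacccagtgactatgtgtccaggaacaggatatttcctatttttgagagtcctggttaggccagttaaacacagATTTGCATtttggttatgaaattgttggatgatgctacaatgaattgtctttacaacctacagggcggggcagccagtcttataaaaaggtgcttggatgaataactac
Sprr1a: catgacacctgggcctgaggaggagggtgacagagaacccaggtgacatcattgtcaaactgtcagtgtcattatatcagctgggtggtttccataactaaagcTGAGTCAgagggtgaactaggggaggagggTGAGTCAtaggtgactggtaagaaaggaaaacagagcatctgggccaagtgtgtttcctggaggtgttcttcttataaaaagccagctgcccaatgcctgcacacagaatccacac
The AP-1 motif was present in 6 of the 7 windows, all but that of *Sprr3*, against 6.75% of all 32851 windows of this length. The octamer was present in 5 of 7, the windows of *Sprr2b*, *Sprr2d*, *Sprr2e*, *Sprr2f* and *Sprr2h*, against 1.60% of all windows. The GAS motif TTCNNNGAA, a pattern that Stat factors can bind, had a match in 0 of the 7 windows and in 7.02% of all windows. In the *Sprr2* windows the AP-1 match began 193 to 198 bases before the start and the octamer 108 to 112 bases before it. These windows descend from duplicated copies and are not independent of each other, and a match is a description of letters only, as is its absence.

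The luminal libraries held 23850565 (control), 28460465 (eKO) and 27809527 (eKO with rLif) counts, and the blastocyst libraries 18996158 to 19638852. With 1 library per group no difference had a replicate check, so each ratio of 2 libraries is given with an exact 95% Clopper-Pearson interval that covers counting error only. A gene was called when this interval lay wholly beyond a log2 ratio of 1 (2-fold) in either direction, among genes with at least 10 counts over the 3 libraries of a tissue. The targeted gene went against the labels in the luminal layer: *Lif* had 0 counts under the control label, 28 under the eKO label and 0 under the label of eKO with rLif. Those 28 counts were 0.975 CPM, and the paper places Lif in the glands before attachment. Such counts in the luminal layer cannot settle whether the labels are right or wrong. The luminal libraries are therefore named only by these labels, as control-labelled, eKO-labelled and rLif-labelled, and control, eKO and rLif in a luminal comparison stand for these labels and nothing more. In the blastocyst libraries, where the embryos carry an intact allele, *Lif* had 1447, 1736 and 1250 counts. All 10 luminal epithelial markers (such as *Krt8*, *Epcam* and *Calb1*) were detected in the luminal libraries, with summed levels of 5553, 12852 and 6288 CPM (counts scaled to a common library size) in the order control, eKO, eKO with rLif. Trophectoderm markers summed to 2865 to 3093 CPM and inner cell mass markers to 1202 to 1404 CPM in the blastocyst libraries.

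*Sprr2f* and *Sprr2g* made up nearly the whole family signal in the luminal layer. *Sprr2f* had 16676 counts in the control-labelled library, 4089 in the eKO-labelled library and 94769 in the rLif-labelled library. *Sprr2g* had 9957, 2549 and 63761 counts in the same order. Both genes were thus lowest in the eKO-labelled library and highest in the rLif-labelled one. As a level comparable between genes, *Sprr2f* stood at 1085, 234 and 5977 RPKM (reads scaled by exon length and library size) and *Sprr2g* at 606, 136 and 3762 RPKM, where the median analysed luminal gene had 4.18 to 4.30 RPKM. By raw counts *Sprr2f* ranked 160th of all genes in the control-labelled library, 1285th in the eKO-labelled one and 17th in the rLif-labelled one. *Sprr2g* ranked 338th, 2147th and 29th. Of all counts of the 8 members, *Sprr2f* held 60.8%, 61.1% and 58.4% and *Sprr2g* 36.3%, 38.1% and 39.3%.

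The 6 *Sprr2* members together had 27365, 6660 and 161852 luminal counts. With *Sprr1a* and *Sprr3* added, the family took 0.115% of all counts in the control-labelled library, 0.0235% in the eKO-labelled one and 0.583% in the rLif-labelled one. The *Sprr2* sum was thus 4.67-fold lower in the eKO-labelled library than in the control one, 26.8-fold higher with rLif than in eKO, and 5.74-fold higher with rLif than in control. Of 6 markers of glandular epithelium, 4 had a row. Their summed level was 7.17, 4.60 and 18.1 CPM in the same order of libraries, with 1, 1 and 0 of the 4 at 0, and their part in the result was not tested. *Prss28* was called lower and *Foxa2*, *Prss29* and *Ttr* were not called in eKO against control, and *Ttr* had 0, 8 and 4 counts, highest in the eKO-labelled library. In rLif against eKO, *Foxa2*, *Prss28* and *Prss29*, 3 of the 4, were called higher and 0 lower. *Foxa2* (3, 0 and 10 counts) reached the minimum only through the rLif-labelled library, so its call is a description only. In rLif against control, *Prss29* was called higher and 0 lower. Over all analysed luminal genes 7.88% and 4.12% were called higher in these comparisons. In pooled tissue, fewer cells of a type and less RNA per cell cannot be told apart.

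**Figure D1:**
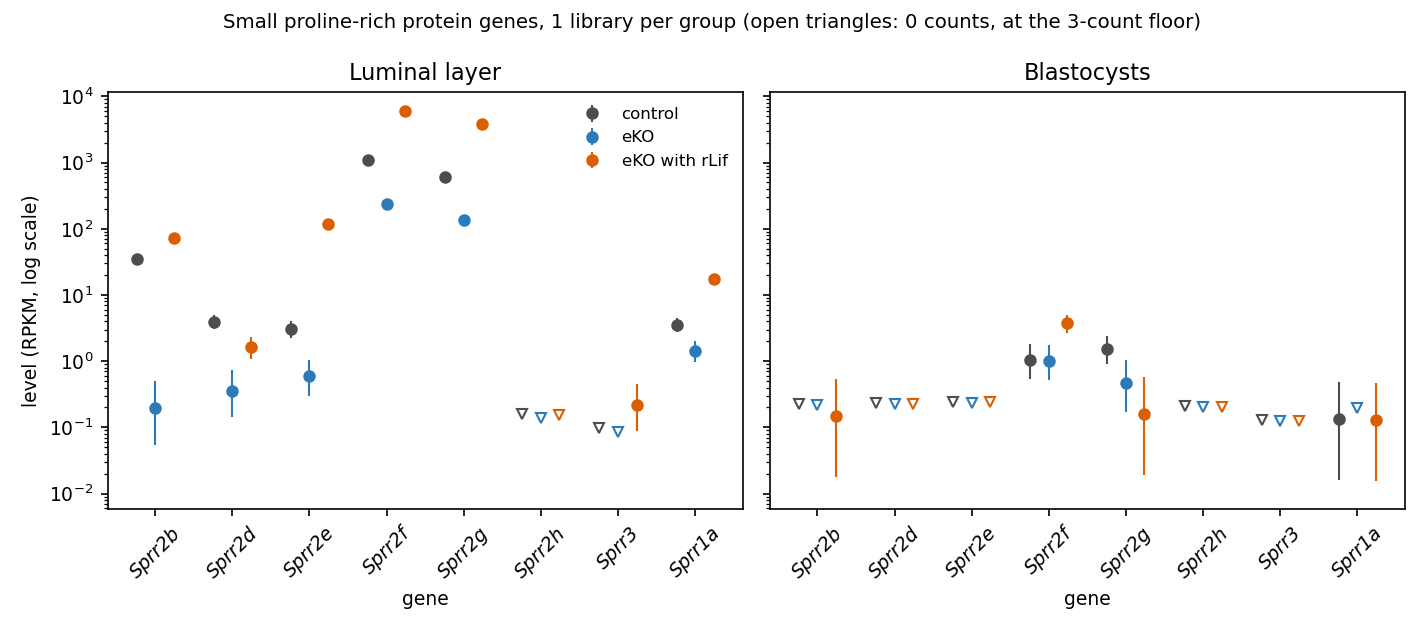
Level of each small proline-rich protein gene (RPKM, log scale) in the 3 luminal libraries (left) and the 3 blastocyst libraries (right), 1 point per library with its exact 95% Poisson interval and an open triangle at the 3-count floor where a gene had 0 counts. In the luminal layer *Sprr2f* and *Sprr2g* stand above the other members in every library, and in blastocysts no member exceeds 3.72 RPKM.

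The minor members had their own levels. *Sprr2b*, whose row follows the *Sprr2a* copies, had 614, 4 and 1326 counts (34.8, 0.199 and 72.9 RPKM) in the control-labelled, eKO-labelled and rLif-labelled luminal libraries. *Sprr2e* had 50, 11 and 1967 counts (3.06, 0.592 and 117 RPKM). *Sprr2d* had 68, 7 and 29 counts (3.96, 0.358 and 1.64 RPKM). Each was lowest in the eKO-labelled library, but *Sprr2b* and *Sprr2e* were highest in the rLif-labelled one, whereas *Sprr2d* was highest in the control-labelled one. *Sprr1a*, a member outside the *Sprr2* run that encodes a longer envelope precursor, had 70, 32 and 354 counts (3.51, 1.41 and 17.2 RPKM). *Sprr3*, known from internal stratified epithelia such as the esophagus, had 0, 0 and 7 counts. *Sprr2h* had 0 counts in all 3 luminal libraries, and a floor of 3 counts allows up to 0.119, 0.104 and 0.115 CPM.

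The order of levels within a library changed below the leading pair. In the control-labelled library, *Sprr2b* came next, and *Sprr2d*, *Sprr1a* and *Sprr2e* followed with overlapping Poisson intervals. In the eKO-labelled library, *Sprr1a* came next with an interval (0.965 to 1.99 RPKM) that overlapped that of *Sprr2e* (0.296 to 1.06 RPKM), and *Sprr2d* and *Sprr2b* were not separated from *Sprr2e*. In the rLif-labelled library the order was *Sprr2f*, *Sprr2g*, *Sprr2e*, *Sprr2b*, *Sprr1a*, *Sprr2d* and *Sprr3*, each separated from the next by its counting interval.

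**Figure D2:**
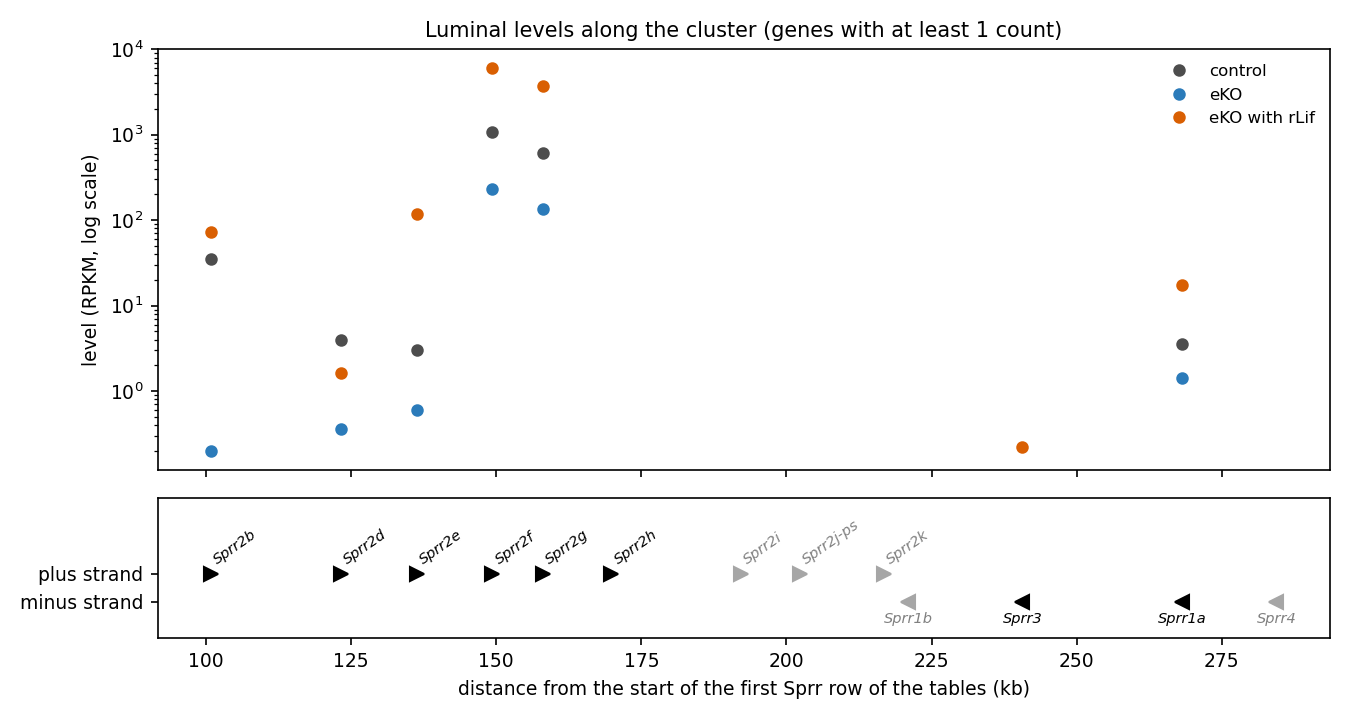
Luminal RPKM (log scale) of the members with at least 1 count against the start of their row in kb from the first Sprr row (top), and the position and strand of each Sprr row (bottom; members black, other rows grey, the *Sprr2a1* and *Sprr2a2* rows at 0 kb left out). The highest levels belong to the neighbours *Sprr2f* and *Sprr2g*, while the next row on the same strand, *Sprr2h*, had 0 counts.

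The study's question for the first comparison was the effect of deleting *Lif* in the epithelium, and the luminal *Lif* counts given above went against the labels of these libraries. Between the eKO-labelled and control-labelled libraries, *Sprr2f* had a log2 ratio of -2.21 (-2.26 to -2.16) and *Sprr2g* of -2.15 (-2.22 to -2.09). *Sprr2b* had the lowest ratio at -7.45 (-9.33 to -6.08), set by its 4 counts in the eKO-labelled library. *Sprr2d* (-3.47, -4.83 to -2.35) and *Sprr2e* (-2.37, -3.46 to -1.41) were also called lower. *Sprr1a* had -1.32 (-1.97 to -0.69), which was not called. Of the 8 members, 6 had the minimum of 10 counts over the 3 libraries, and 5 of these were called lower and 0 higher, where 9.15% of the 15694 analysed luminal genes were called lower and 8.08% higher. The call of *Sprr2e* uses its 50 counts in the control-labelled library, which entered the selection of the family. The members are also alike, neighbouring copies, so this tally is a description only. *Sprr2h* and *Sprr3* had 0 counts in both libraries.

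The second comparison addressed treatment of *Lif* eKO females with rLif. Between the rLif-labelled and eKO-labelled libraries, *Sprr2f* had a log2 ratio of 4.68 (4.63 to 4.72) and *Sprr2g* of 4.79 (4.73 to 4.84). The ratios of *Sprr2b* (8.51, 7.15 to 10.39) and *Sprr2e* (7.62, 6.78 to 8.63) were larger, from bases of 4 and 11 counts. *Sprr1a* was called higher at 3.61 (3.09 to 4.18). *Sprr2d* had 2.19 (0.97 to 3.63), just short of the call, and the 7 counts of *Sprr3* against 0 were not called (lower limit of the exact interval 1.59-fold). Thus 5 of the 6 members with at least 10 counts were called higher and 0 lower, where 7.88% of all analysed luminal genes were called higher and 7.77% lower. The call of *Sprr2e* uses its 1967 counts in the rLif-labelled library, the value on which the family was selected. This tally is therefore a description only. The eKO-labelled library enters both this comparison and the first, so they are not independent.

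The comparison of rLif with control is the one on which *Sprr2e* was chosen. *Sprr2e* was 38.1-fold higher in the rLif-labelled than in the control-labelled library, a log2 ratio of 5.25 (4.85 to 5.69). *Sprr2g* (2.63, 2.60 to 2.67), *Sprr2f* (2.46, 2.44 to 2.49) and *Sprr1a* (2.29, 1.92 to 2.69) had smaller ratios and were called higher too. *Sprr2b* had 1.07 (0.93 to 1.21) and *Sprr2d* had -1.27 (-1.95 to -0.63), and neither was called. Of the 6 members with at least 10 counts, 4 were called higher and 0 lower. Over all analysed luminal genes 4.12% were called higher and 5.04% lower, and nothing is read from this count because the rule used the contrast.

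**Figure D3:**
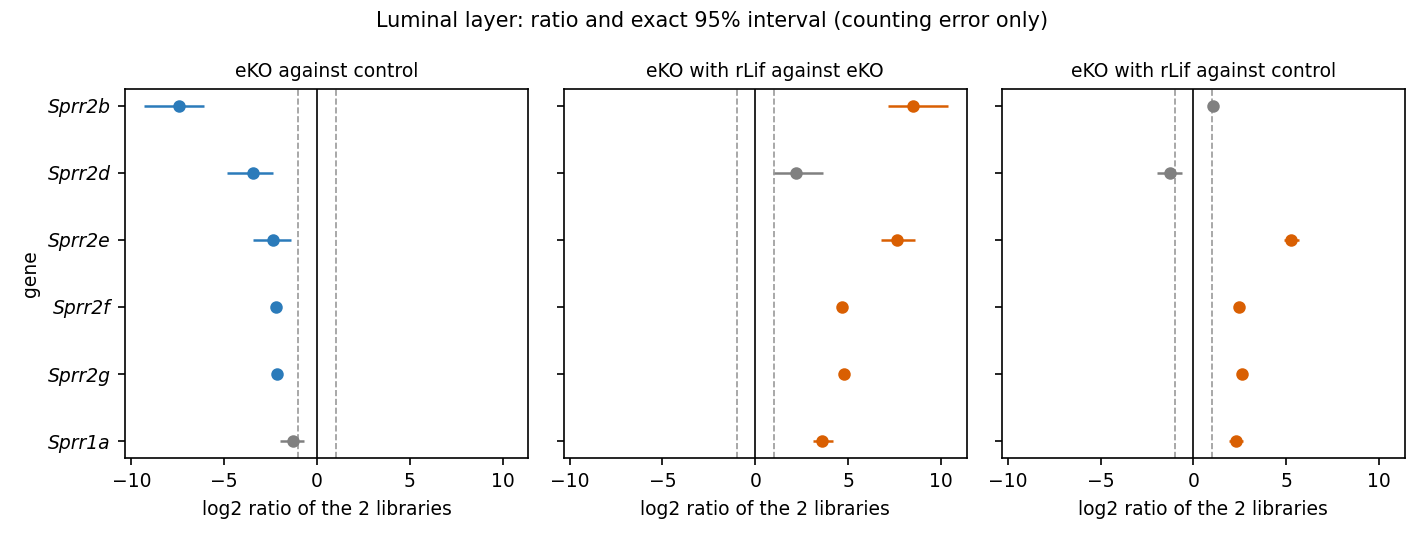
Log2 ratio of 2 luminal libraries for the 6 members with at least 10 counts, with exact 95% intervals for counting error, in 3 comparisons (orange called higher, blue called lower, grey not called; dashed lines at -1 and 1). Every ratio lies below 0 for eKO against control and above 0 for rLif against eKO, while against control *Sprr2d* lies below 0 and *Sprr2e* is the highest.

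Each member was also expressed relative to *Sprr2f* in the same library. *Sprr2f* made up 62.6%, 61.6% and 59.8% of the counts of the *Sprr2f* and *Sprr2g* pair in the control-labelled, eKO-labelled and rLif-labelled luminal libraries. Relative to *Sprr2f*, *Sprr2g* was 1.13-fold higher (1.10 to 1.15) with rLif than in control. *Sprr2e* stood at 0.300%, 0.269% and 2.08% of the *Sprr2f* counts, and its ratio to *Sprr2f* in the eKO-labelled library was 0.897 (0.421 to 1.75) of that in the control-labelled one, an interval that includes no change. The *Sprr2e* values in the rLif-labelled and control-labelled libraries entered the selection of the family. The ratios that contain them are descriptions only: this 0.897, and with rLif 6.92-fold against control and 7.72-fold against eKO. *Sprr2d* stood at 0.408%, 0.171% and 0.0306% of the *Sprr2f* counts. *Sprr2b* stood at 3.68%, 0.0978% and 1.40%, and *Sprr1a* at 0.420%, 0.783% and 0.374%.

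**Figure D4:**
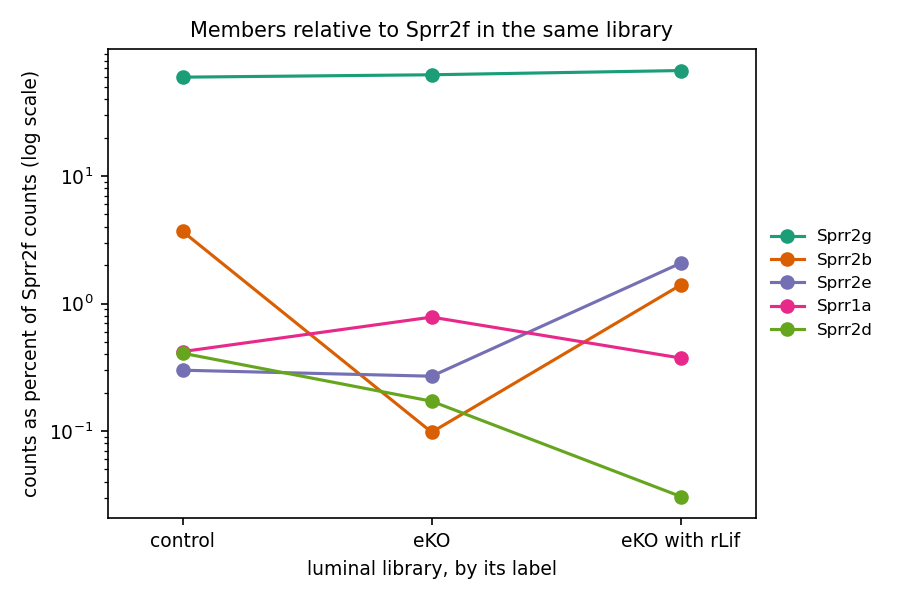
Counts of 5 members as a percentage of the *Sprr2f* counts of the same luminal library (log scale), 1 point per library joined by lines that only guide the eye. *Sprr2g* stays between 59.7% and 67.3%, *Sprr2e* is highest and *Sprr2d* lowest in the rLif-labelled library, and *Sprr2b* is lowest in the eKO-labelled library.

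Among the 7 members with an upstream window, which leave out *Sprr2g*, *Sprr2d* and *Sprr2e* are the closest pair upstream of the start. Their 250-base windows printed above were 89.3% identical, against 73.3% for *Sprr2e* and *Sprr2f*, and both held the AP-1 and octamer letters at the same distances, 193 and 108 bases before the start. Their luminal counts were near each other in the control-labelled (68 and 50) and eKO-labelled (7 and 11) libraries and were 29 and 1967 in the rLif-labelled one. The value of 1967 is the one the selection used, so the distance between the pair in that library is a description. *Sprr2h*, with both motifs in its window, had 0 counts in all 6 libraries.

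The blastocyst libraries held few reads of the family, 33, 18 and 50 counts in those from control, eKO and rLif-treated eKO uteri. *Sprr2f* had 12, 12 and 44 counts, highest in the rLif-treated group. *Sprr2g* had 19, 6 and 2 counts, lowest in the rLif-treated group. *Sprr1a* had 2, 0 and 2 counts, *Sprr2b* had 0, 0 and 2, and *Sprr2d*, *Sprr2e*, *Sprr2h* and *Sprr3* had 0 in every blastocyst library, where 3 counts correspond to 0.153 to 0.157 CPM. Counted per library total, the *Sprr2* sum was 703-fold, 255-fold and 2354-fold higher in the luminal than in the blastocyst library of the same group. The tables of the tissues were scaled separately, so these folds use raw library totals.

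Only *Sprr2f* and *Sprr2g* reached 10 counts in blastocysts. Between eKO and control, *Sprr2f* had a log2 ratio of -0.04 (-1.32 to 1.25) and *Sprr2g* of -1.70 (-3.31 to -0.32), and 0 of the 2 were called where 3.15% of 14873 analysed blastocyst genes were. Between rLif-treated eKO and eKO, *Sprr2f* had 1.88 (0.94 to 2.94) and *Sprr2g* -1.58 (-4.92 to 0.91), again 0 of 2 called against 3.75% of genes. Between rLif-treated eKO and control, *Sprr2f* had 1.85 (0.90 to 2.90) and was not called. *Sprr2g* was called lower at -3.28 (-6.42 to -1.22), 1 of 2 against 4.94% of genes, on 2 counts against 19. *Sprr2g* (19, 6 and 2 counts) reached the minimum only through the control library, where it was highest. Its call and the 1 of 2 are therefore descriptions only. The share of *Sprr2f* in the pair was 38.7% (exact interval 21.9% to 57.8%), 66.7% (41.0% to 86.7%) and 95.7% (85.2% to 99.5%) in the control, eKO and rLif-treated groups. In the luminal libraries it ran from 59.8% to 62.6%. The blastocyst *Sprr2f* level was 0.0903%, 0.425% and 0.0665% of the luminal level, and whether maternal RNA entered the flushed pools was not tested.

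The other small proline-rich rows in the tables (*Sprr1b*, *Sprr2a1*, *Sprr2a2*, *Sprr2i*, *Sprr2j-ps*, *Sprr2k* and *Sprr4*) had 0 counts in all 6 libraries. *Sprr2a1* and *Sprr2a2* list the same exons in the tables (chr3:92215835-92257304), so their 0 cannot be read as absence of the transcripts. Of 51 other genes of the epidermal differentiation complex, 49 had a row, 28 had 0 counts in the luminal layer and 18 could be compared. Among these 4 were called higher and 2 lower in eKO against control, 2 higher and 3 lower in rLif against eKO, and 2 higher and 3 lower in rLif against control, with median log2 ratios of 0.06, -0.09 and 0.46, where the medians over all genes ran from -0.00473 to 0.00491. For this list and the next ones, the shares of all analysed luminal genes called higher and lower were 8.08% and 9.15% in eKO against control, 7.88% and 7.77% in rLif against eKO, and 4.12% and 5.04% in rLif against control. The calcium-binding genes *S100a1* (2310, 6261 and 4789 counts), *S100a16* (2870, 6869 and 4237) and *S100a13* (381, 1147 and 915) were called higher in the eKO-labelled library than in control, the opposite direction to the *Sprr2* members. *S100a9*, a neutrophil and stressed-epithelium protein, had 72, 16 and 1 counts. *Pglyrp4* (0, 13 and 0 counts), *Prr9* (13, 0 and 0), *Lce3c* (0, 0 and 18) and *Ivl* (5, 0 and 10) were also called. Each reached the minimum of 10 counts only through the library where it was highest. The 2 higher calls in rLif against eKO were *Lce3c* and *Ivl*, so the numbers called in this list are descriptions only.

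Of 19 genes that build or anchor the cornified envelope around these proteins, 9 could be compared. Of these, 1 was called higher and 1 lower in eKO against control, 1 higher and 0 lower in rLif against eKO, and 1 higher and 1 lower in rLif against control, with medians of 0.54, -0.02 and 0.33. *Tgm1*, the membrane transglutaminase that cross-links small proline-rich proteins, had 17, 6 and 122 counts and was called higher with rLif than in eKO (log2 ratio 4.49) and than in control (2.80). *Anxa1*, a membrane-binding envelope component, had 6899, 19796 and 8972 counts and was called higher in the eKO-labelled library than in the control-labelled one. *Aloxe3*, a lipoxygenase of the skin barrier, had 20, 0 and 0 counts. It reached the minimum only through the control-labelled library, so its lower calls are descriptions only. Involucrin (*Ivl*), an envelope scaffold, had 5, 0 and 10 counts.

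Of 21 transcription factors of epithelial barriers that could be compared, 0 were called higher and 6 lower in eKO against control, 8 higher and 1 lower in rLif against eKO, and 3 higher and 3 lower in rLif against control (medians -0.61, 0.62 and 0.16). *Cebpb* had 20279, 6636 and 35920 counts. Subunits of AP-1, the factor whose motif was searched above, had unlike patterns: *Junb* had 10558, 6393 and 22947 counts, *Fos* had 2583, 3764 and 8247, and *Jun* had 3026, 2262 and 1097. *Fosl2* had 2247, 993 and 2121 counts, *Fosl1* had 2, 1 and 39, and *Jund* had 14879, 16544 and 23113. *Fosl1* reached the minimum only through the rLif-labelled library, and *Zfp750* (128, 3 and 5 counts) only through the control-labelled one. The calls of these genes are descriptions only. In rLif against eKO, *Junb*, *Fos*, *Fosl1* and *Fosl2* were called higher, and *Jun* and *Jund* were not called. In rLif against control, *Junb*, *Fos* and *Fosl1* were called higher and *Jun* lower (log2 ratio -1.51), and *Fosl2* and *Jund* were not called. Among these subunits only *Fosl2* was called in eKO against control, as lower. Of 10 receptor and signaling genes, 1 was called higher and 4 lower in eKO against control, 6 higher and 0 lower in rLif against eKO, and 3 higher and 0 lower in rLif against control (medians -0.86, 1.60 and 0.61). The Lif receptor gene *Lifr* had 5362, 1463 and 4554 counts, and *Stat3* had 5758, 3213 and 7823. *Socs3*, the feedback inhibitor induced by Stat3, had 1482, 153 and 4242 counts, and *Il13ra1*, a receptor subunit for interleukin 13, had 2118, 488 and 3602.

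The luminal genes outside the family most like the *Sprr2* sum were found by distance over 3 libraries among 13776 genes with at least 50 counts, on centred log2(CPM + 0.5). *Areg*, an epidermal growth factor receptor ligand, was nearest at a distance of 0.186 with 1067, 236 and 7232 counts. *Gm14005* (0.373), *1190003J15Rik* (0.386), *Slc5a9* (0.417), *Lrat* (0.505) and *Gm2115* (0.519) followed. On the same scale *Sprr1a* lay at 1.19, *Sprr2e* at 1.75, *Sprr2b* at 2.16 and *Sprr2d* at 2.91 from the sum, farther than these genes. With 3 points per gene this is a description of patterns.

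Markers of other epithelia were read in the same luminal libraries. The 12 squamous epithelium markers summed to 24.8, 49.8 and 28.0 CPM in the control-labelled, eKO-labelled and rLif-labelled libraries, with 8, 5 and 7 of them at 0, and the basal keratins *Krt5* and *Krt14* had 0 counts in all 3. Most of each sum came from *Krt10*, with 495 of 627, 1319 of 1430 and 630 of 729 counts. *Dsg3* had 108, 41 and 49 counts, lowest in the eKO-labelled library. Stromal markers summed to 826, 1258 and 823 CPM, smooth muscle markers to 70.4, 50.5 and 31.4 CPM, and immune markers to 90.9, 97.9 and 123 CPM.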

How the data were processed

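Read counts per gene were analysed for 6 mouse libraries, 1 for each of 3 groups in luminal layer and blastocysts. Groups came from the sample labels. The authors made SMART-seq v4 libraries, sequenced paired ends, aligned reads to GRCm38/mm10 with HISAT2 and counted them with featureCounts (Subread 2.0.0). The deposited values were whole-number counts per gene, although the methods describe the output as RPKM. The annotation release, strand setting, read length and treatment of reads with several matches are not given in the sources used here. The kit does not mark strand. Columns of other samples numbered 0.

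Library sizes were scaled by TMM within each tissue (edgeR 4.0.16, R 4.3.3). CPM and RPKM used the scaled size, and RPKM the exon length in the deposited tables. A minimum of 10 counts over a tissue's 3 libraries left 15694 luminal and 14873 blastocyst genes. Total counts ranged from 18996158 to 28460465. Ratios have exact 95% Clopper-Pearson intervals, single counts exact Poisson intervals, and 0 counts a floor of 3 counts per library. All cover counting error only and treat reads as independent. PCR reads without molecular identifiers are not independent molecules, so the intervals can be too narrow even for counting error. No p-value is given, since 1 library per group leaves no spread to test against. The calling rule was tested on simulated data that held counting error only, so that test says nothing about variation among animals. Exact sharing of 50-base and 100-base stretches, sequence identity and motif matches were computed with Biopython 1.88 in Python 3.11.15 on GENCODE M21 transcripts and RefSeq promoters. In context lists with a 0 count, medians use the bound set by the floor.

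All 8 members were named. From each context list, up to 4 genes with the highest mean CPM among those called in a luminal comparison were named, with *Lif*, *Lifr*, *Stat3*, *Socs3* and every row beginning with Sprr, and the 6 genes nearest in pattern to the *Sprr2* sum. *Ivl*, *Pglyrp4*, *Prr9*, *Lce3c*, *Zfp750*, *Fosl1*, *Fosl2*, *Jund* and single marker genes were named in addition, after their values were seen. Members, lists and tests were chosen with earlier results of these data known. Alternatives were DESeq2 1.42.0 size factors, library totals, a filter of 50 counts, log2 limits of 0 and 2, and edgeR's exact test with an assumed dispersion of 0.1.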

Additional observations from a re-analysis of the deposited data

Results flagged for a closer look

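*Sprr2g* had opposite directions in the 2 tissues when rLif-treated *Lif* eKO was compared with control. Its log2 ratio was 2.63 between the luminal libraries labelled eKO with rLif and control (63761 and 9957 counts), and -3.28 between the blastocyst libraries (2 and 19 counts). With 1 library on each side the difference between the tissues was not tested. *Sprr2f*, the most alike member in luminal pattern, had 1.85 in blastocysts (44 and 12 counts), which was not called.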

How the results depend on the processing

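No paired analysis was possible because each group held 1 library, and for the same reason no replicate could be left out. The number of members called in the luminal layer ranged from 4 to 6 for eKO against control, from 5 to 6 for rLif against eKO and from 3 to 6 for rLif against control, and no member's log2 ratio changed sign with DESeq2 size factors or library totals. The filters and limits leave a ratio as it is, and edgeR's exact test was used for numbers called only. The highest numbers came with a log2 limit of 0 and the lowest with a limit of 2 or with edgeR's exact test at an assumed dispersion of 0.1. At the limit of 0, most analysed luminal genes were called too: 11724, 11212 and 10384 of 15694 in the same order of comparisons. At the limit of 2 the numbers over all genes were 868, 750 and 295, and by edgeR's exact test 1250, 1109 and 342. Library totals in place of TMM shifted all luminal log2 ratios by -0.07 (eKO against control), -0.11 (rLif against eKO) and -0.18 (rLif against control), and 0 of the member calls changed. In blastocysts a limit of 0 gave 1 member called for eKO against control (*Sprr2g*), 1 for rLif against eKO (*Sprr2f*) and 2 for rLif against control. That limit called 6667, 7832 and 7865 of the 14873 analysed blastocyst genes in the same order, so these member numbers say little. For rLif against control, 0 were called with a limit of 2 or by edgeR's exact test. The blastocyst call of *Sprr2g* thus rests on the chosen rule and on 2 counts against 19. A minimum of 50 counts left only *Sprr2f* to compare, and it was not called. That setting cannot show whether the *Sprr2g* call holds, because *Sprr2g* was filtered out. Over all analysed blastocyst genes, the minimum of 50 counts called 447 of 12362, the limit of 2 called 149 of 14873 and edgeR's exact test 124 of 14873. No value for the variation among animals was available, and none enters the intervals.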
